A study of Mus musculus with 12 samples.

Results

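Neutrophil granule genes were read in spinal cord of 1-week-old mice with 1 P278KY copy of Gars and in wt mice. The 8 genes are S100a8 and S100a9, whose products fill the neutrophil cytosol, the specific granule genes Ngp, Camp and Ltf, and the azurophil granule genes Elane, Mpo and Prtn3. They were picked by gene name as a measure of marrow or blood kept with the cord, and each of the 8 was found once among the 38924 genes of every library. All 8 also passed the filter on low counts, which kept 17995 genes. The library with the most of these transcripts held 8.15-fold as much as the one with the least, 814.5 against 99.9 TPM (transcripts per 1e6, a level scaled to transcript length and library total). The spread was wide in both genotypes, 116.4 to 814.5 TPM in wt and 99.9 to 578.2 TPM in P278KY, and 0 of the 8 genes passed the test between them.

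Neutrophils are made in bone marrow from myeloblasts and promyelocytes, and their granules are filled in sequence. The azurophil (primary) granule proteins are transcribed in promyelocytes, the specific (secondary) granule proteins in myelocytes and metamyelocytes, and the S100 pair is carried on into mature cells. Healthy spinal cord tissue holds few neutrophils, whereas the marrow of the vertebrae and the blood in the vessels and meninges lie next to it.

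The study took whole spinal cord from 12 mice aged 1 week on a B6J;CAST background, a mix of C57BL/6J with a wild-derived strain, and made 1 poly(A) RNA library per mouse. The groups were female wt, male wt, female P278KY and male P278KY, with 3 mice in each, so each genotype had 6. The series title calls this age earlier than disease onset, and gives the mutant mice 1 mutant and 1 wt copy of Gars, which encodes glycyl-tRNA synthetase. A library's name below joins its labelled sex, its genotype and its mouse number. The labels describe no perfusion and no step that removes blood or vertebral tissue.

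Depth ran from 27713981 to 43219891 expected counts per library, and no 2 libraries held identical values. Gars itself was at 124.5 ± 6.74 CPM (counts per 1e6) in the 6 wt libraries and 131.2 ± 7.36 in the 6 of P278KY (mean ± SD), and the allele cannot be checked from a gene total. In 2 libraries the sex genes went against the label: the library labelled female wt 14 had Xist at 0.533 CPM and Ddx3y at 45.1, and the library labelled male wt 19 had Xist at 860 and Ddx3y at 0.0233. Both carry the label wt, both were among those with much neutrophil RNA, and results that turn without them are given with and without them. The cord label fitted its markers: the oligodendrocyte gene Mbp was at 7255 to 12920 TPM and the motor neuron gene Chat at 4.18 to 10.5 TPM over the 12 libraries.

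In the GRCm38 mouse genome (GENCODE M21) the genes lie on 4 chromosomes. S100a8 (chr3:90668978-90670035, plus strand) and S100a9 (chr3:90692632-90695721, minus strand) are 22.6 kb apart. Camp (chr9:109847379-109849617, minus strand), Ngp (chr9:110419747-110423012, plus strand) and Ltf (chr9:111019271-111042767, plus strand) follow each other at gaps of 570.1 and 596.3 kb. Prtn3 (chr10:79874476-79883174, plus strand) lies 3.1 kb before Elane (chr10:79886247-79888215, plus strand), and Mpo is alone at chr11:87793581-87804413 (plus strand).

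The bases before the start of 7 of the genes are shown because of the pattern described next: S100a8, S100a9, Ngp, Camp and Ltf moved together from mouse to mouse, whereas the neighbours Elane and Prtn3 did not follow each other as closely. They come from RefSeq's GRCm38.p6 start sites, 250 bases before each, less any bases inside a coding transcript of GENCODE M21, and read 5′ to 3′ on the gene's strand. Capitals mark matches, on either strand, to TTGCNNAA, letters found in many sites of the granulocyte factors of the C/EBP family, or to GAGGAA, the core of many sites of the myeloid factor PU.1.
S100a8, chr3:90668821-90668977, plus strand: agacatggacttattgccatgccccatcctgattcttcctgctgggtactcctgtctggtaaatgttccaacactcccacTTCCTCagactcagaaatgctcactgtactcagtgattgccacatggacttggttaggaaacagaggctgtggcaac
S100a9, chr3:90695722-90695971, minus strand: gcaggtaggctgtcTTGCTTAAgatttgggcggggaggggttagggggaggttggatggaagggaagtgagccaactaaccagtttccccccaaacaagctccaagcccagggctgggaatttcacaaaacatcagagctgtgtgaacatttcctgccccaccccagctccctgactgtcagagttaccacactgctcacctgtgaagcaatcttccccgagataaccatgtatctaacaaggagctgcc
Ngp, chr9:110419558-110419746, plus strand: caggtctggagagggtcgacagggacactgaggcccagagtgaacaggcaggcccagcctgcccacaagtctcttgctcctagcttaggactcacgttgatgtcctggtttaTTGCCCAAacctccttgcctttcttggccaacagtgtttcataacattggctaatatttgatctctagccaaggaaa
Camp, chr9:109849618-109849706, minus strand: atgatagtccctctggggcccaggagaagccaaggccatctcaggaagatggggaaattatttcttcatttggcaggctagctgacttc
Ltf, chr9:111019042-111019270, plus strand: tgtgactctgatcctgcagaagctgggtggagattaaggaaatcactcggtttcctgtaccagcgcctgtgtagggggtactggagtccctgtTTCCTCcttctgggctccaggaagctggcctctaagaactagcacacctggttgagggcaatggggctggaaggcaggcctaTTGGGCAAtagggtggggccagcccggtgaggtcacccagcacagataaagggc
Elane, chr10:79886062-79886246, plus strand: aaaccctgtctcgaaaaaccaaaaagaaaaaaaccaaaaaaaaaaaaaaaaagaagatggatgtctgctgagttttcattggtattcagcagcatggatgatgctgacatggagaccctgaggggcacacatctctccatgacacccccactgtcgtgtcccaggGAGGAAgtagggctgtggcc
Prtn3, chr10:79879417-79879613, plus strand: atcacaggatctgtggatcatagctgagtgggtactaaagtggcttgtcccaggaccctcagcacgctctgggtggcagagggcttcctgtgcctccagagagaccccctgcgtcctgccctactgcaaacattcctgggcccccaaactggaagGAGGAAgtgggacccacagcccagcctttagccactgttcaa

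Searched over the full 250 bases, TTGCNNAA was found for 3 of the 8 genes, S100a9, Ngp and Ltf, and in 9.56% of 32851 RefSeq promoters. GAGGAA was found for 5 of the 8, S100a8, Ltf, Prtn3, Elane and Mpo, and in 23.2% of all promoters. Camp held neither. S100a8 and Camp, which moved with S100a9, Ngp and Ltf, lack TTGCNNAA in this window, so it does not mark that set. Elane and Prtn3 both carry GAGGAA, at 85 and 95 bases before the start, so this short word does not separate the neighbours. These matches describe the letters and show no binding.

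S100a8 and S100a9 encode the partners of calprotectin, a calcium- and zinc-binding dimer. S100a8 had the highest level of the 8. In wt females S100a8 was at 123.2, 102.2 and 294.2 TPM (mice 1, 2 and 14). In wt males it was at 56.1, 383.4 and 259.6 TPM (mice 6, 9 and 19). Mouse 6 and mouse 9 of the wt males thus lay at the bottom and the top of wt. In P278KY females S100a8 was at 50.6, 268.6 and 256.6 TPM (mice 4, 7 and 10). In P278KY males it was at 161.1, 124.7 and 247.3 TPM (mice 3, 5 and 13). The genotypes overlapped almost wholly, with 5 of the 6 P278KY libraries inside the range of wt.

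S100a8 averaged 203.1 ± 128.2 TPM over 6 wt mice and 184.8 ± 87.5 TPM over 6 P278KY mice (SD). Its log2 fold change, P278KY against wt, came to -0.13 (SE 0.55), with a 95% interval of -1.37 to 1.10 (adjusted p = 0.9999, edgeR quasi-likelihood test with Benjamini-Hochberg adjustment). As a fold this is 0.911, with an interval from 0.388 to 2.14, so a change of 2-fold in either direction was not excluded with these mice. By group, S100a8 was at 233.0 ± 165.2 TPM in male wt, 191.9 ± 122.5 in female P278KY, 177.7 ± 63.0 in male P278KY and 173.2 ± 105.3 in female wt (SD, n = 3 each). No neighbours in that order differed by more than their spread.

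S100a9 closely followed S100a8. It was lowest in female P278KY 4, at 29.7 TPM, and highest in male wt 9, at 283.0 TPM. In wt S100a9 had a median of 142.3 TPM (range 37.9 to 283.0), and in P278KY a median of 147.6 TPM (range 29.7 to 199.8). The log2 fold change of S100a9 was -0.16 (SE 0.58). The ratio of S100a8 to S100a9 TPM stayed between 1.28 and 1.70 over the 12 libraries, while S100a9 itself spanned 9.53-fold.

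**Figure D1:**
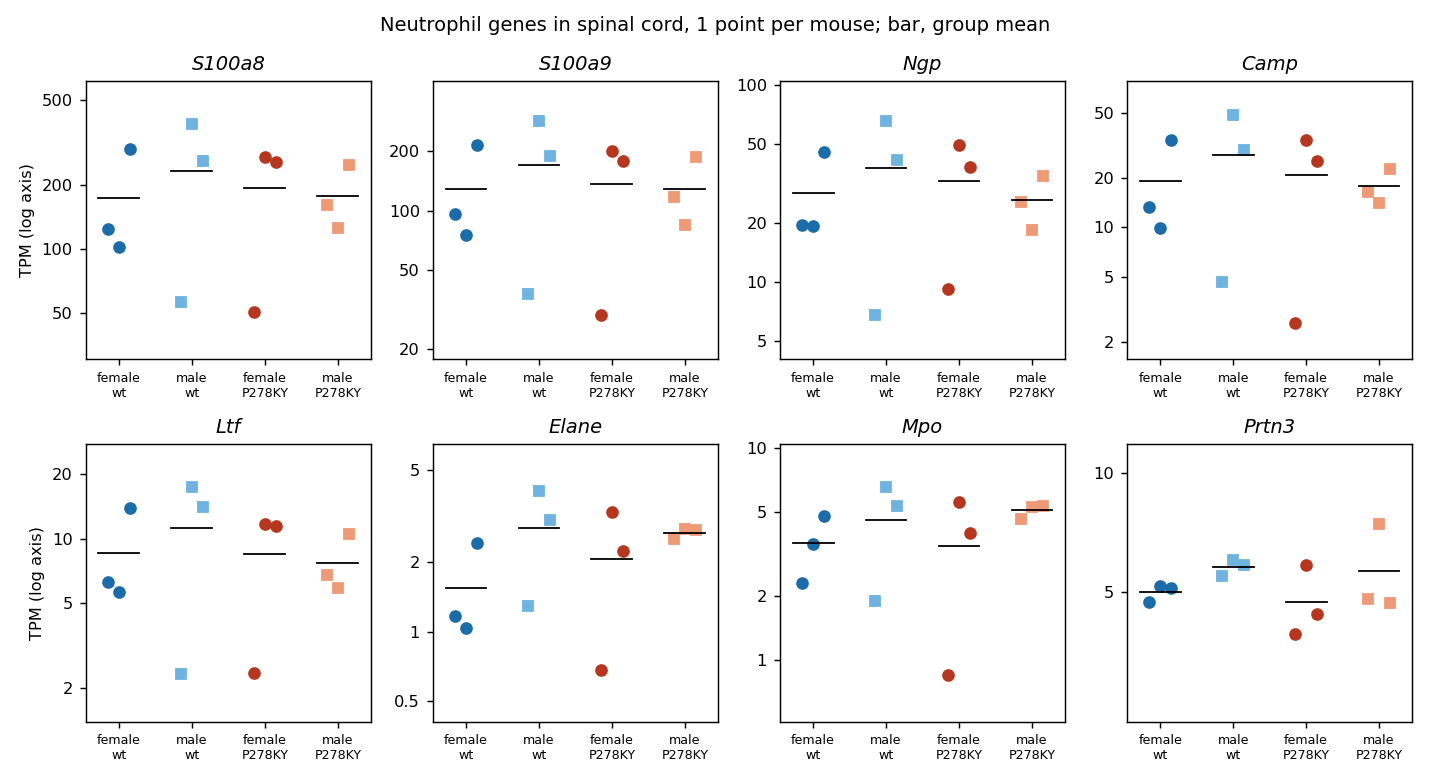
TPM of the 8 neutrophil genes (log axes) in the 4 groups of 3 mice, 1 point per mouse, with a bar at the group mean. Within each group of female wt, male wt and female P278KY, S100a8 ranged at least from 123.2 to 256.6 TPM. For S100a8 no group stood apart from another. Female wt lay wholly below male P278KY for Elane (highest 2.41 against lowest 2.51 TPM). For Prtn3 it lay wholly below male wt on TPM (highest 5.18 against lowest 5.47), but not on CPM. There female wt 2 was at 2.089 and male wt 6 at 1.934 CPM. The share of all genes with groups of 3 apart was not counted. Female wt 14 and male wt 19 have sex genes that go against their labels.

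The specific granule genes came next in level. Ngp encodes neutrophilic granule protein, a cystatin-like protein, and was at 19.4, 19.3 and 45.6 TPM in wt females 1, 2 and 14 and at 6.76, 65.4 and 41.5 TPM in wt males 6, 9 and 19. In P278KY Ngp was at 9.24, 49.3 and 38.5 TPM in females 4, 7 and 10 and at 25.6, 18.2 and 34.4 TPM in males 3, 5 and 13. All 6 P278KY values of Ngp lay inside the range of wt. Its log2 fold change was -0.15 (SE 0.57).

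Camp encodes the antimicrobial cathelicidin. It had the widest span of the 8 genes, 18.5-fold, from 2.63 TPM in female P278KY 4 to 48.6 TPM in male wt 9. The lower of these rests on 17 counts (95% Poisson interval 9.90 to 27.2, which covers counting error only) and the upper on 330 counts (295 to 368). Camp averaged 23.4 ± 16.9 TPM over wt and 19.2 ± 10.8 TPM over P278KY mice (SD, n = 6 each), and its log2 fold change of -0.26 had a 95% interval of -1.71 to 1.202.

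Ltf encodes lactoferrin, the iron-binding protein of specific granules. Ltf was at 2.31 to 17.4 TPM in wt, with a median of 10.1, and at 2.34 to 11.8 TPM in P278KY, with a median of 8.65. All 6 P278KY values of Ltf lay inside the range of wt. Its log2 fold change was -0.26 (SE 0.54).

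The azurophil granule genes were lower, at a few TPM. Elane encodes neutrophil elastase and was at 1.17, 1.04 and 2.41 TPM in wt females 1, 2 and 14 and at 1.29, 4.07 and 3.05 TPM in wt males 6, 9 and 19. In P278KY Elane was at 0.68, 3.29 and 2.23 TPM in females 4, 7 and 10 and at 2.51, 2.78 and 2.76 TPM in males 3, 5 and 13. Here the wt females 1, 2 and 14 all lay below every P278KY male. The nearest values were 2.41 and 2.51 TPM, on 31 and 35 counts. These groups differ in both sex and genotype, and the sex genes of female wt 14 go against its label. The share of all genes with such groups apart was not counted. Elane rests on 8 to 57 counts per library, the fewest of the 8 genes, and its log2 fold change was 0.20 (95% interval -0.62 to 1.01).

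Mpo encodes myeloperoxidase, which makes hypochlorous acid. Mpo was at 2.31, 3.54 and 4.79 TPM in wt females 1, 2 and 14 and at 1.90, 6.56 and 5.34 TPM in wt males 6, 9 and 19. In P278KY Mpo was at 0.85, 5.58 and 3.97 TPM in females 4, 7 and 10 and at 4.64, 5.30 and 5.33 TPM in males 3, 5 and 13. Female P278KY 4 thus stood far below the other 5 P278KY libraries. The log2 fold change of Mpo was 0.07 (SE 0.39). An antisense gene, Gm11505, overlaps Mpo over 5361 bases and was at 0 to 0.11 TPM.

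Prtn3 encodes proteinase 3, a serine protease close to elastase. It did not share the wide range of the other 7 genes. Prtn3 was at 4.71, 5.18 and 5.12 TPM in wt females 1, 2 and 14 and at 5.47, 6.01 and 5.85 TPM in wt males 6, 9 and 19. In P278KY Prtn3 was at 3.91, 5.86 and 4.39 TPM in females 4, 7 and 10 and at 4.8, 7.40 and 4.69 TPM in males 3, 5 and 13. Its span was 1.89-fold, and male wt 6, which was low in the S100 pair, had 5.47 TPM. The wt TPM values were close together (5.39 ± 0.486, SD, n = 6), and 2 of 6 P278KY values lay inside their range. On CPM, the scale of the fit, wt Prtn3 ran from 1.685 to 2.591. P278KY females 7 and 10 and males 3 and 13, at 1.698 to 2.136 CPM, lay inside that range. The log2 fold change was -0.08 (SE 0.17), or a fold of 0.944 with a 95% interval from 0.726 to 1.23, which leaves out a 2-fold change.

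The total assigned to Prtn3 is less certain than the others. The annotation gives it 6 transcripts, of which 2 code for protein and 3 are retained introns, and its expected count was fractional in 10 of 12 libraries. The gene also overlaps Plppr3, a phospholipid phosphatase-related gene on the opposite strand, over 159 bases. Plppr3 was at 64.4 to 88.6 TPM and did not rise with Prtn3 (r = -0.38 between the log2 CPM of the 2 genes, a description over the 12 libraries). Whether the counting used strand is not given in the sources used here, and the part of this overlap in the Prtn3 level was not tested.

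Over all 8 genes, 0 were called by genotype in edgeR at an adjusted p under 0.05, and 0 had an unadjusted p under 0.05. Over all 17995 genes tested edgeR called 1, or 0.00556%, and 736 had an unadjusted p under 0.05. DESeq2 called 0 of the 8 and 33 of all genes, or 0.183%. None of the 8 had groups that did not overlap, against 40 genes or 0.222% of all. Of the 8 genes 2, Elane and Mpo, were fitted higher in P278KY, against 8434 of the 17995 genes tested. The median log2 fold change of the 8 was -0.14 against -0.0064 over all genes. Without both libraries whose sex genes go against their label, the log2 fold changes were 0.20 for S100a8, 0.16 for S100a9, 0.12 for Ngp, 0.0884 for Camp and 0.0892 for Ltf, above 0 instead of below it, and still 0 of the 8 were called.

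The genotype effect was also compared between the sexes. For S100a8 the effect in females minus that in males was 0.59 (SE 1.13) on the log2 scale, and over the 8 genes it ran from -0.10 for Prtn3 to 0.80 for Camp. None of the 8 was called by edgeR (lowest adjusted p = 0.8524, for Ngp) or by DESeq2, and none had an unadjusted p under 0.05. Over all genes edgeR called 0 (0.0%), 1967 had an unadjusted p under 0.05 and DESeq2 called 279 (1.55%). With 2 labels of sex in doubt, this contrast rests on uncertain groups.

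**Figure D2:**
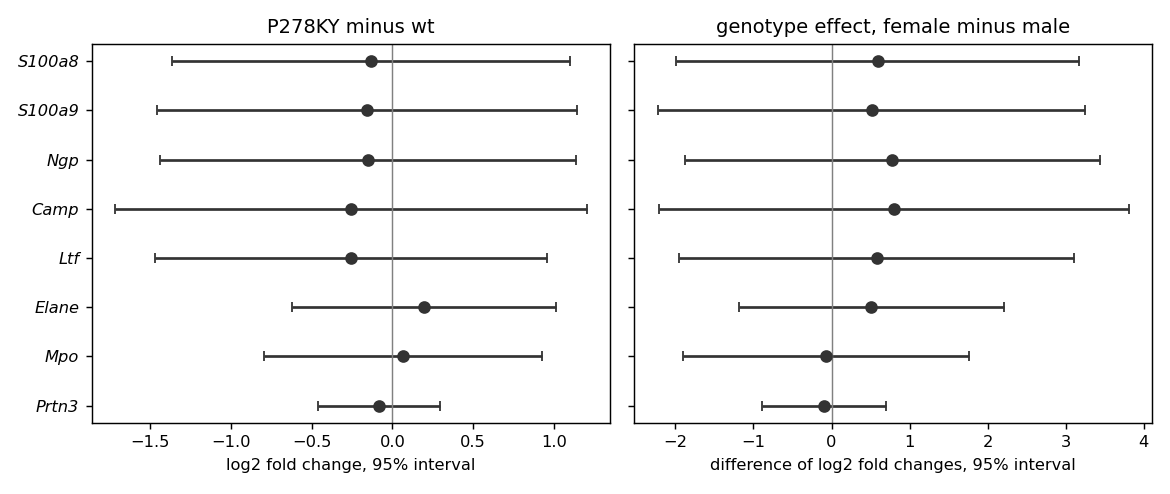
Fitted log2 fold changes of the 8 genes with 95% intervals, P278KY minus wt on the left and the genotype effect in females minus that in males on the right. Every interval crosses 0, and the interval of Prtn3 (-0.46 to 0.29 on the left) is the narrowest.

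Most of the variation of these genes lay between mice of 1 genotype. The SD of log2 CPM over the 12 libraries was 0.97 for S100a8, 1.04 for S100a9, 1.01 for Ngp, 1.22 for Camp and 0.98 for Ltf, against a median of 0.16 over all genes tested. These 5 genes lay between the 95.8th and 96.9th percentile of all genes by this SD. Elane (0.75) and Mpo (0.81) lay at the 94.0th and 94.7th percentile, and Prtn3 (0.33) at the 75.9th. The part of the variance that lay between genotypes was at most 2.98%, for Prtn3, and 0.0376% for S100a8.

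The same libraries were high or low for most of the genes. Male wt 9, male wt 19 and female P278KY 7 had all 8 genes among the 4 highest libraries. Female P278KY 4 had all 8 among the 4 lowest, and male wt 6 and female wt 2 had 7 of 8 there. High and low libraries thus occurred in both genotypes. Fewer neutrophil-lineage cells and less of these RNAs per cell cannot be told apart in a bulk library.

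**Figure D3:**
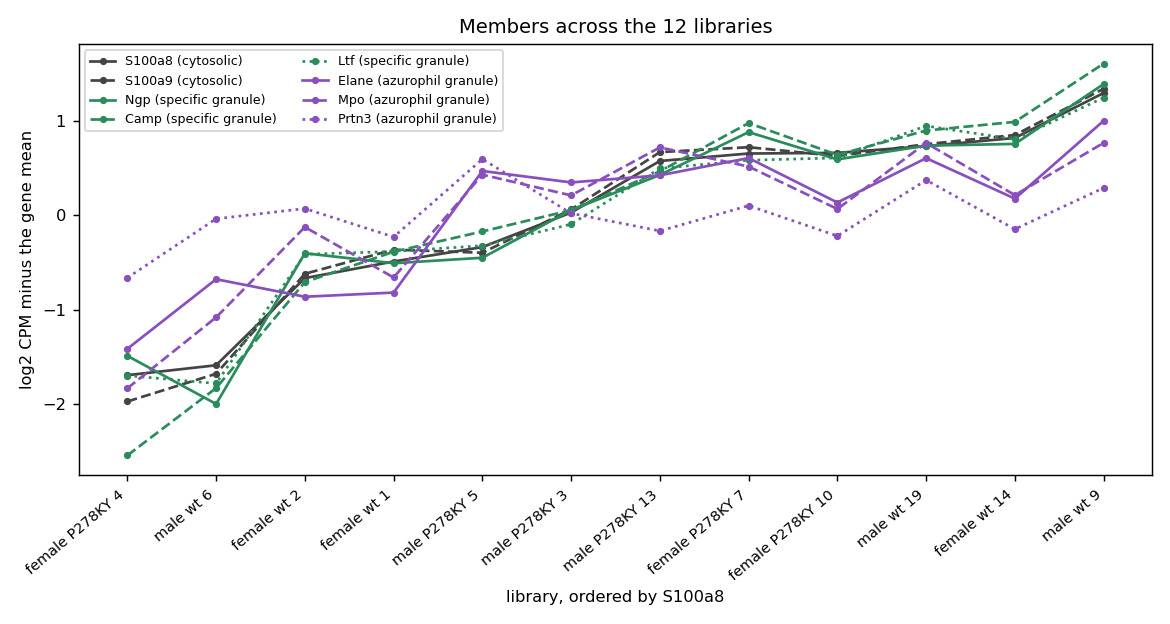
Log2 CPM of each of the 8 genes minus its own mean, in the 12 libraries ordered by S100a8. The S100 and specific granule genes broadly climb together from female P278KY 4 to male wt 9, though Ngp and Ltf are lowest in male wt 6. Elane and Mpo follow less closely, and the dotted line of Prtn3, with an SD of 0.33, does not keep step with S100a8.

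Within the 8 genes, 23 of 28 pairs were correlated across the 12 mice at an adjusted p under 0.05 (Pearson's r of log2 CPM, two-sided permutation test with 100000 resamples, Benjamini-Hochberg over 28 pairs). The cytosolic and specific granule genes formed the closest set, with r from 0.96 to 1.00 and Spearman's rho from 0.93 to 0.99 in all 10 pairs (adjusted p = 5.6e-05 in each, at or next to the smallest raw p of 1e-05 that the permutations can give). In these 10 pairs the lowest r was 0.9868 within wt and 0.9697 within P278KY (6 mice each). Leaving out the 2 libraries farthest from the median left the lowest r at 0.9689.

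Elane and Mpo were correlated with each other at r = 0.92 and with the 5 genes of that set at r from 0.82 to 0.91, in 11 of 11 pairs. For Prtn3, 2 of 7 pairs passed, those with its neighbour Elane (r = 0.68, rho = 0.72, adjusted p = 0.0170, permutation test) and with Mpo (r = 0.70, rho = 0.66, adjusted p = 0.0129, permutation test). With S100a8 the r of Prtn3 was 0.40 (rho 0.36, adjusted p = 0.203, permutation test), and -0.0033 without the 2 farthest libraries. Without the 2 farthest libraries r was 0.57 for Prtn3 with Elane and 0.53 with Mpo, and 0.67 to 0.80 for Elane or Mpo with the 5 genes of the S100 and specific granule set. Elane and Mpo thus had higher r with that set than with Prtn3, a difference that was not tested.

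**Figure D4:**
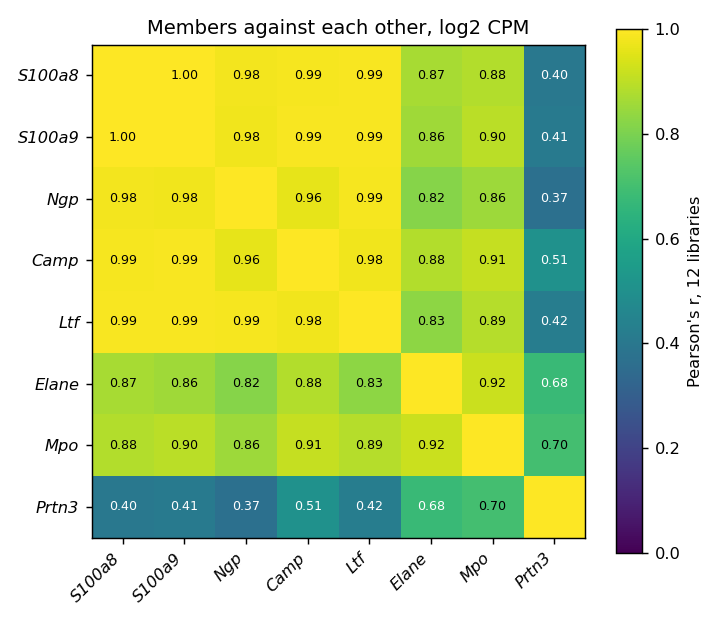
Pearson's r between the log2 CPM of each pair of the 8 genes over 12 libraries, printed in each cell. The block of S100a8, S100a9, Ngp, Camp and Ltf holds r of 0.96 to 1.00, and the row of Prtn3 falls to 0.37 with Ngp.

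The proportions among the classes also varied. The S100 pair made up 79.6% to 84.3% of the summed TPM of the 8 genes, and the specific granule genes 11.8% to 16.4%. The azurophil genes took 2.001% to 7.44%, or 1.18% to 3.16% when Prtn3 was left out. The ratio of Mpo to Ngp TPM, a promyelocyte transcript against a later one, ranged from 0.0920 to 0.291 with a median of 0.124. That ratio averaged 0.153 ± 0.0695 in wt against 0.156 ± 0.0742 in P278KY mice (SD, n = 6 each), a difference far smaller than the spread.

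Other genes of the neutrophil and its products were read from 5 lists, in which no gene had an unadjusted p under 0.05 in edgeR and DESeq2 called 0. The median log2 fold change was -0.18 for other granule genes, -0.14 for mature neutrophil genes, -0.0965 for transcription factors and -0.0140 for inhibitors and receptors, against -0.0064 over all genes. Of 12 further granule genes 11 were tested, 0 were called in either direction by edgeR, and 3 were fitted higher in P278KY. Lyz2, lysozyme of neutrophils and macrophages, had the highest level (mean 36.8 TPM, range 11.2 to 62.5) and a log2 fold change of -0.01 (SE 0.44). Its log2 CPM rose and fell with that of S100a8 (r = 0.96), as did those of Lcn2 (0.96) and Chil3 (0.96), whereas Hp (0.30) and Mmp9 (0.45) did not follow as closely. These are descriptions over 12 libraries, and all were scaled by library. Ms4a3, a gene of granulocyte-monocyte progenitors, was at 0.23 to 1.66 TPM (log2 fold change -0.47, SE 0.47).

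Genes of mature neutrophils were present as well. Of 10 listed, 8 were tested, 0 were called and 1 was fitted higher in P278KY. Stfa1, a stefin that inhibits cysteine proteases, had the highest level, at 61.4 ± 40.6 TPM in wt against 56.9 ± 25.3 TPM in P278KY mice (SD, n = 6 each). It belongs to a family of near-identical copies, so its count is uncertain. The chemokine receptor gene Cxcr2 varied little, from 1.79 to 2.79 TPM, and Ly6g, which encodes the usual surface marker, had 17 counts in all with 3 libraries at 0. Mmp25, a membrane-bound protease, had a log2 fold change of -0.37 (SE 0.28). Retnlg varied widely, from 1.67 to 20.1 TPM. The r of log2 CPM with S100a8 was 0.98 for Retnlg, 0.97 for Stfa1, 0.98 for Stfa2, 0.96 for Stfa2l1 and 0.89 for Trem3. It was lower for Csf3r (0.73), Cxcr2 (0.57) and Mmp25 (0.52), all as descriptions over 12 libraries.

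Of the 5 transcription factors of granulocytes, 0 were called and 2 were fitted higher. Spi1, which encodes PU.1 and is used by microglia too, had a mean of 5.28 TPM and a log2 fold change of 0.03 (SE 0.17). Cebpa was at 1.32 to 3.05 TPM and Cebpd at 2.26 to 4.51 TPM. Cebpe, at 0.06 to 1.02 TPM, and Gfi1, at 0 to 0.45 TPM, were lower. The correlation with S100a8 was 0.69 for Spi1, 0.71 for Cebpa and 0.16 for Cebpd, again as a description over 12 libraries. It was 0.78 for Cebpe and 0.72 for Gfi1.

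The proteins that bind or inhibit granule products were read too, and 0 of 8 genes were called, with 4 fitted higher. Lrp1, an endocytic receptor made by many cord cells, was steady at 143.7 to 177.0 TPM. Serpinb1a, an inhibitor of elastase and proteinase 3, had the smallest p of this list, with a log2 fold change of -0.64 (SE 0.45, adjusted p = 0.9999, edgeR), and 1 wt library reached 11.8 TPM. Serpina3n, a serine protease inhibitor that reactive astrocytes make, was at 27.9 ± 9.37 TPM in wt against 23.5 ± 2.62 TPM in P278KY mice (SD, n = 6 each).

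Signals that draw or expand neutrophils were near the floor. Of 9 such genes only Cxcl12, the marrow-retention chemokine that the cord also makes, passed the filter, with a mean of 39.1 TPM and a log2 fold change of 0.01 (SE 0.11). The neutrophil growth factor gene Csf3 had 10 counts over all 12 libraries, Cxcl2 had 4, Csf2 had 3 and Il6 had 12. At this depth no difference in these could be detected.

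S100a8, which has the highest mean level of the 8 genes, was then set beside marker lists of the cells and tissues next to the cord, with 6 relations tested (log2 CPM of S100a8 against the log2 of each list's summed CPM, two-sided permutation test with 100000 resamples, Benjamini-Hochberg over 6). Of the 9 red blood cell genes found, Hba-a2 had the highest mean TPM and Hbb-bs the most counts. The 9 genes summed to 1006 to 4808 CPM in wt and 1919 to 4230 CPM in P278KY. None of these was called by edgeR, had an unadjusted p under 0.05 or was called by DESeq2, and the same holds for the B cell precursor, microglia and bone lists. S100a8 was correlated with the red blood cell list (r = 0.77, rho = 0.76, adjusted p = 0.0120, permutation test). The r was 0.76 without the 2 farthest libraries, female wt 1 and male wt 6, and it was 0.86 within wt and 0.77 within P278KY. Without both libraries whose sex genes go against their label r was 0.72 with an adjusted p of 0.0607 (permutation test), and without male wt 6 alone it no longer passed (r = 0.68, adjusted p = 0.0602, permutation test).

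The 9 genes of B cell precursors, cells that mature in marrow, summed to 3.01 to 14.6 CPM in wt and 2.50 to 11.9 CPM in P278KY. Vpreb1 and Vpreb3, the surrogate light chain genes, were at 0 in 1 library each. S100a8 was correlated with this list (r = 0.86, rho = 0.73, adjusted p = 0.00192, permutation test), with r = 0.72 without the 2 farthest libraries, 0.96 within wt and 0.79 within P278KY. Of the 6 lists it had the highest r over all 12 libraries. By rho, however, the red blood cell (0.76) and microglia (0.75) lists were higher. By r without the 2 farthest libraries the red blood cell list was higher (0.76).

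The microglia list summed to 232.8 to 315.8 CPM in wt and 240.9 to 352.1 CPM in P278KY, a narrow range. Its relation to S100a8 (r = 0.68, rho = 0.75, adjusted p = 0.0297, permutation test) fell to r = 0.61 (p = 0.0593, permutation test) without the 2 farthest libraries, female P278KY 10 and male wt 6. The call was also lost without any 1 of 5 libraries, with the lowest r, 0.59, without male wt 6 (adjusted p = 0.106, permutation test). No relation passed for bone, cartilage and osteoclasts (r = 0.45, rho = 0.51, adjusted p = 0.207, permutation test), sensory neurons (r = 0.35, rho = 0.35, adjusted p = 0.320, permutation test) or skeletal muscle (r = 0.21, rho = 0.17, adjusted p = 0.496, permutation test).

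Skeletal muscle genes were the list that differed most between libraries, from 10.7 to 976 CPM in wt and 64.1 to 2598 CPM in P278KY, with 10 of 10 fitted higher in P278KY, 0 called and 6 at an unadjusted p under 0.05 in edgeR. Sensory neuron genes summed to 72.9 to 522 CPM in wt and 64.8 to 95.2 CPM in P278KY, with 0 of 8 tested genes fitted higher, 0 called and 2 at an unadjusted p under 0.05. DESeq2 called 0 in both lists. Over all 17995 genes tested, 8434 were fitted higher in P278KY and 736 had an unadjusted p under 0.05 in edgeR. Muscle was high in male wt 19 and sensory neuron genes in female wt 14, both of which also had much S100a8, but male wt 9, the highest in S100a8, had 32.9 CPM of muscle genes. The part of these tissues in the levels of the 8 genes was not tested.

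**Figure D5:**
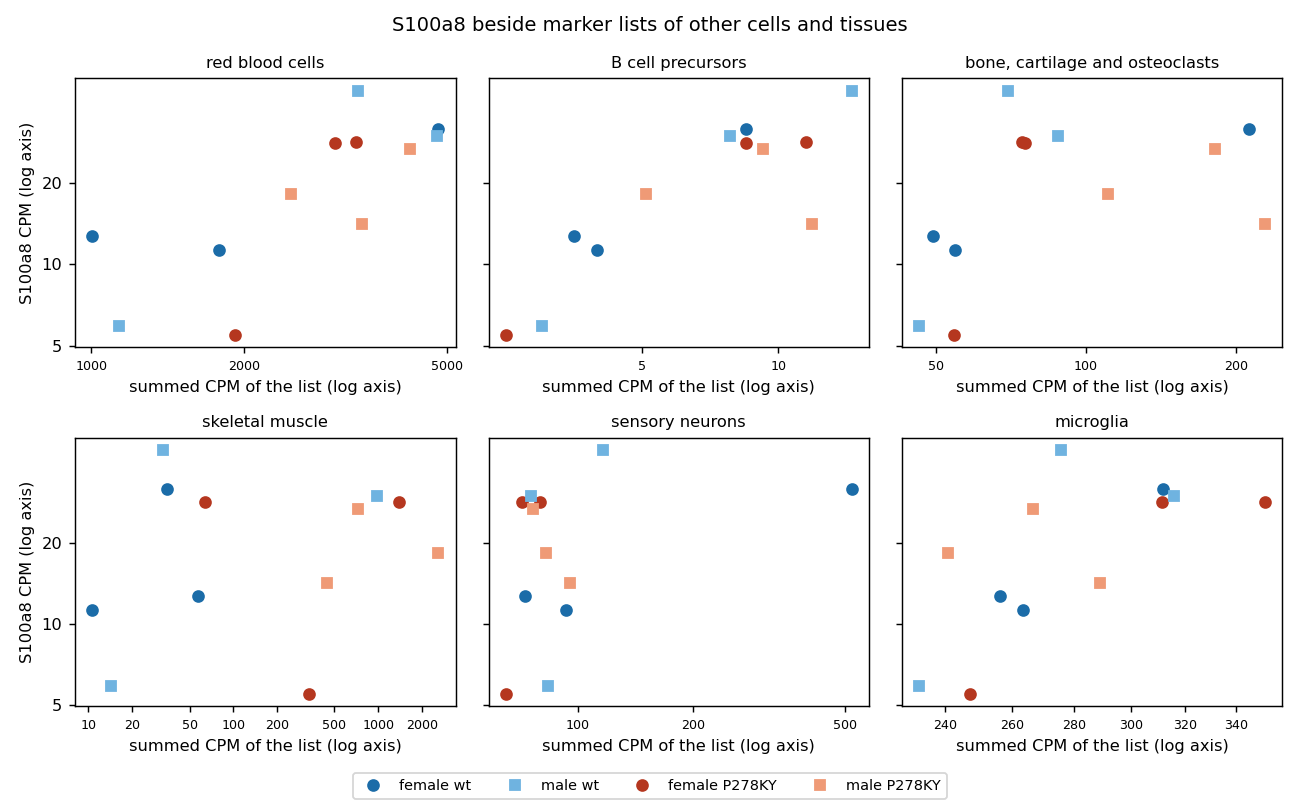
CPM of S100a8 against the summed CPM of 6 marker lists (log axes), 1 point per mouse, coloured by group. S100a8 rises with the red blood cell and B cell precursor lists (r = 0.77 and 0.86) and shows no such order with skeletal muscle (r = 0.21).

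To name the genes most like these 8, predicted genes (Gm and a number, or Rik) and genes below the filter on low counts were passed over. Those most like the 8 among other genes were named by the highest mean r of log2 CPM to them over the 12 libraries. They were Cd177 (mean r = 0.90), which encodes the neutrophil surface partner of proteinase 3, Lrmp (0.89), Stfa3 (0.88), the leukocyte integrin gene Itgb2 (0.88), the myeloid surface gene Ly6c2 (0.88) and Rac2, a GTPase of blood cells (0.88). Each had its lowest r with Prtn3, from 0.45 for Stfa3 to 0.56 for Cd177. None of the 6 was called by genotype (adjusted p = 0.9999 in edgeR for each), and their log2 fold changes ran from -0.23 for Stfa3 to 0.02 for Rac2.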

How the data were processed

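Per the file headers, each deposited file gives an expected count and a TPM value for every gene. The expected counts are the authors' estimated fragments per gene, which need not be whole, and the authors' TPM relate each gene to its transcript length and its library's total. The submitters' processing notes name the tools RSEM 1.2.12 and Bowtie2 2.2.0, without a role. Not given in the sources used here are the build, annotation and strand setting. Gene positions come from GENCODE M21 and promoters from RefSeq, joined by gene ID or symbol, and all 8 genes matched both.

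Expected counts were rounded to whole numbers, filtered with filterByExpr over the 4 groups, scaled by TMM and tested with edgeR 4.0.16 (robust quasi-likelihood, R 4.3.3) with labelled sex as a term. For the interaction, each of the 4 groups had its own mean. Adjustment was over all 17995 genes, with a threshold of 0.05. Standard errors are the log2 fold change over the square root of F. CPM are counts per 1e6 of the TMM-scaled total (prior count 2 for log2 CPM). The script was tested on simulated data. Samples were grouped by title and genotype label. The labels name separate mice. Alternatives used DESeq2 1.42.0, limma 3.58.1, other filters and scalings, and left out libraries.

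The 8 genes and the 17 other lists were chosen with earlier results of these data known, and 134 of 135 listed symbols were found. Beside the 8 genes and Gars, the text names by rule, from each list, the gene with the highest mean TPM and up to 2 with the smallest genotype p, and the 6 genes most like the 8. Other genes of a list were named after their values were seen. Of 4 relations added after the data were seen, 1 is not reported here.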

Additional observations from a re-analysis of the deposited data

Results flagged for a closer look

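In 28 groups of 6 libraries the highest or lowest value was compared with its nearest neighbour, as the gap over the whole range, and 4 stood apart. Chance would do so in about 1 of 20 groups.

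Among the 8 genes this was Mpo in P278KY, where female P278KY 4 had 0.85 TPM and the other 5 had 3.97 to 5.58 TPM (gap over range 0.660). The same library was the lowest of P278KY for all 8 genes.

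The other 3 were marker lists in wt. The summed TPM of bone, cartilage and osteoclast genes was 244.8 in female wt 14 and 34.1 to 103.5 in the others (0.670). Sensory neuron genes summed to 497.8 TPM in female wt 14 and 93.3 to 152.6 in the others (0.854). Skeletal muscle genes summed to 1091 TPM in male wt 19 and 9.55 to 83.1 in the others (0.932). These are the libraries whose sex genes go against their labels, and their S100a8 levels were 294.2 and 259.6 TPM.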

How the results depend on the processing

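No gene of the 8 was called for genotype or interaction under any alternative (lowest adjusted p = 0.9542 and 0.5535 over all alternatives). A 2-fold genotype effect in either direction lay inside the 95% intervals of S100a8, S100a9, Ngp and Camp, and Elane rests on 8 to 57 counts. No paired analysis was made, because the titles give sex, genotype and mouse number and no litter or other pairing of the mice.

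Genotype effects turned sign with limma-voom for S100a8 (0.0251) and Ngp (0.0764), with limma on log2(TPM + 0.1) for Mpo (-0.0044), and without both libraries whose sex genes go against their labels for S100a8 (0.20), S100a9 (0.16), Ngp (0.12), Camp (0.0884) and Ltf (0.0892). Leaving out 1 library gave -0.32 to 0.15 for S100a8, -0.36 to 0.13 for S100a9, -0.38 to 0.18 for Ngp, -0.53 to 0.10 for Camp, -0.46 to -0.02 for Ltf, -0.0336 to 0.40 for Elane, -0.13 to 0.26 for Mpo and -0.21 to 0.0015 for Prtn3. Genes called by genotype numbered 33 with DESeq2, 2 without the sex term, 0 with a stricter filter, 0 without both of those libraries, and 1 to 3 without 1 library (3 without female wt 2, 2 without female P278KY 10).

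Interactions turned sign with limma-voom for S100a9 (-0.14), Camp (-0.18) and Ltf (-0.0588), on log2(TPM + 1) for S100a9 (-0.13) and Camp (-0.0783), and on log2(TPM + 0.1) for S100a9 (-0.14), Camp (-0.19) and Ltf (-0.0469). Without 1 library they ran from 0.02 to 1.22 for S100a8, -0.0809 to 1.11 for S100a9, 0.12 to 1.31 for Ngp, 0.10 to 1.51 for Camp, 0.11 to 1.10 for Ltf, 0.04 to 0.97 for Elane, -0.55 to 0.36 for Mpo and -0.30 to 0.16 for Prtn3.

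The relation of S100a8 to microglia lost its call on log2(TPM + 1) (r = 0.61) and without both libraries (0.62), and without 1 library r was 0.59 to 0.77 (not called without female wt 14, male wt 6, male wt 19, female P278KY 4 or female P278KY 7). For red blood cells r was 0.72 without both libraries and 0.68 to 0.83 without 1. That to B cell precursors passed in 15 of 15 settings. Between 21 and 24 of 28 pairs of the 8 genes passed. The causes were not tested.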

Other observations

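Blood cells other than neutrophils and red cells were present at low levels. The eosinophil granule gene Prg2 was at 1.16 to 21.7 TPM, and its log2 CPM went with that of S100a8 (r = 0.90, a description over 12 libraries). The mast cell protease genes Tpsb2 and Mcpt4 had fitted log2 fold changes of 1.06 (SE 0.53) and 1.10 (SE 0.56), P278KY against wt, with an adjusted p of 0.9999 each in edgeR. In the platelet lineage, Pf4 was at 5.36 to 19.1 TPM, and Itga2b was at 5.89 ± 1.502 TPM in wt against 4.37 ± 0.725 TPM in P278KY mice (SD, n = 6 each, log2 fold change -0.35, SE 0.18, adjusted p = 0.9999, edgeR). Of the monocyte genes, Plac8 was at 2.91 to 7.90 TPM and F13a1 at 2.66 to 6.12 TPM.

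After the data were seen, S100a8 was also set beside 2 genes of position along the body axis and the myelin gene Mbp. The p-values come from permutation tests and are adjusted over the 4 relations computed. Hoxc8, a gene of thoracic segments, was at 19.5 to 71.9 TPM and rose with S100a8 (r = 0.66, rho = 0.64, adjusted p = 0.0211). Hoxc10, a gene of lumbar segments, was at 12.8 to 65.0 TPM and went the other way (r = -0.65, rho = -0.76, adjusted p = 0.0211). Without the 2 libraries farthest from the median r was 0.52 and -0.67, within wt 0.90 and -0.76, and within P278KY 0.44 and -0.46. Mbp also rose with S100a8 (r = 0.79, rho = 0.73, adjusted p = 0.00938), with r at 0.45 without the 2 farthest libraries, 0.88 within wt and 0.65 within P278KY. How much of each cord region a library holds is not given by the labels, and its part in the levels of the 8 genes was not tested.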
